A study of Mus musculus with 24 samples.

Results

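Wide m6A peaks are described here: intervals of at least 1000 bp in lists of sites enriched for m6A, that is, adenosine methylated at its N6 position within an RNA chain. The members were found by collapsing the lines of each list that share chromosome, start and end to 1 peak, each line being 1 summit, and keeping the peaks whose end minus start was at least 1000 bp. This gave 3559 wide peaks among 113764, or 3.13%, and 110205 narrower peaks. The members were chosen by width alone, so their widths, summits, fold enrichments and q-values are given as a description and were not tested.

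The study used picoMeRIP-seq, an antibody pull-down of methylated RNA fragments adapted to few cells, on C57BL/6N mouse oocytes and embryos at 6 stages with 2 biological replicates each. The stages were oocytes at the germinal vesicle (GV) stage with a surrounded nucleolus, held from resuming meiosis by IBMX; oocytes at metaphase II (MII), taken 14 h after chorionic gonadotropin (hCG); and zygotes, 2-cell embryos, 8-cell embryos and blastocysts from mated females, taken 27 to 28, 39 to 43, 68 to 70 and 92 to 94 h after hCG. All females were 8 weeks old and had received gonadotropin, and every library is a pool: 49 oocytes for each GV library, 100 and 110 MII oocytes, 100 and 51 8-cell embryos, and 100 cells or embryos elsewhere. GV oocytes, MII oocytes and zygotes are called the maternal phase and the later stages the embryonic phase, 6 libraries each; the 12 input libraries were not analysed here.

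m6A is added to nuclear RNA by the METTL3 and METTL14 methyltransferase with the adaptors VIRMA, RBM15 and CBLL1, and is bound by YTH domain proteins that can direct a transcript to decay. In messenger RNA it is known to gather in long internal exons and around stop codons. Oocytes store transcripts made during growth, and much of this store is cleared after fertilisation while the embryonic genome becomes active.

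Wide peaks were rare at gene starts, and the few that covered one are shown because they are the members for which a sequence could be read. Of 32851 promoter windows in the RefSeq table of GRCm38.p6, each from 250 bases before to 50 after a gene start, 15 were touched by a wide peak and 3 lay wholly under one. Capitals mark GGACT, a core form of the m6A motif, and its reverse complement AGTCC, searched on both strands. One or the other was present in 45.5% of all windows, and a match is only a match of letters. The windows are given on the strand of the gene, and the peak lists carry no strand.
Cct6b (a chaperonin subunit gene), chr11:82764272-82764571, minus strand, under a peak of 1309 bp in zygote replicate 2: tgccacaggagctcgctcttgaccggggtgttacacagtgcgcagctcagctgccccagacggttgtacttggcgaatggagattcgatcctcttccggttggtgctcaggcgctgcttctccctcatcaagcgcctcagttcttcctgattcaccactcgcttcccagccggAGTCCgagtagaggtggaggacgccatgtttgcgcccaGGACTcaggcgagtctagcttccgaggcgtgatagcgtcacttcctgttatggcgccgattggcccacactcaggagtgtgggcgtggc
Prmt6 (an arginine methyltransferase gene), chr3:110250950-110251249, minus strand, under a peak of 1765 bp in 2-cell replicate 2: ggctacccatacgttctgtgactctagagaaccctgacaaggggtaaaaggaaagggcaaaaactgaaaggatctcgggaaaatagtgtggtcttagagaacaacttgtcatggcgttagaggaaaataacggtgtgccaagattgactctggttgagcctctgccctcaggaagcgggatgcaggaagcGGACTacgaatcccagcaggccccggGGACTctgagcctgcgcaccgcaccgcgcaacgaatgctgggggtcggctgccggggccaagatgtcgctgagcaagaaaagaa
Becn2 (a beclin family gene), chr1:175920079-175920378, plus strand, under a peak of 1069 bp in 8-cell replicate 2: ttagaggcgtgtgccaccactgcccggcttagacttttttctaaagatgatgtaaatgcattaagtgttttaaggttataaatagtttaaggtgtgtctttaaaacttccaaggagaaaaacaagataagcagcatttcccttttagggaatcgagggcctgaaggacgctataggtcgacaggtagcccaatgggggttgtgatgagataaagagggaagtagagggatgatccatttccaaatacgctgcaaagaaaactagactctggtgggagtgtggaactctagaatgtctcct
The Cct6b window overlaps that of Zfp830, which starts on the other strand, and wide peaks touched it in 6 libraries. The Prmt6 and Becn2 windows were touched in 1 library each. Altogether 24 wide peaks, 0.674% of them, touched a promoter window, against 2.46% of the narrower peaks.

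Wide peaks were most frequent in GV oocytes. They made up 5.23% and 5.78% of the peaks of the GV libraries, 2.94% and 2.81% of those of MII oocytes, 3.40% and 3.02% of those of zygotes, 1.87% and 2.24% of those of 2-cell embryos, 2.03% and 2.66% of those of 8-cell embryos, and 3.18% and 0.994% of those of blastocysts. The phases overlapped only through blastocyst replicate 1. The mean was 3.86 ± 1.30% (SD, n = 6) in the maternal and 2.16 ± 0.742% (n = 6) in the embryonic libraries, a difference of 1.70 percentage points (exact two-sided permutation test over 924 splits, p = 0.0130). Both libraries of a stage share that stage, so the 6 libraries of a phase stand for 3 stages: with whole stages permuted p was 0.1, the smallest that 3 stages against 3 allow. Without both GV libraries the difference was 0.880 points (exact permutation p = 0.0667), and for peaks of at least 1500 bp it was 0.185 points (exact permutation p = 0.361).

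Read depth is unknown, and other properties of the lists moved with the phase. The median −log10 q of all peaks was 20.4 to 33.3 in the maternal and 10.7 at the lowest in the embryonic lists, all 6 of which lay below the maternal ones, and the lists held 6914 to 11959 peaks. Among the same number of best peaks by q-value from each library, the share of wide peaks differed by 2.79 points between the phases (exact permutation p = 0.0152). Wide peaks had a median −log10 q of 51.6 to 164 by library, against 10.7 to 30.5 for narrower peaks. Keeping the best peaks therefore favours wide ones, so this comparison cannot take out the part of list strength or depth. The part of pool size and depth in the difference was not tested. Blastocyst replicate 2 had 79 wide peaks and replicate 1 had 290, the widest gap between replicates.

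**Figure D1:**
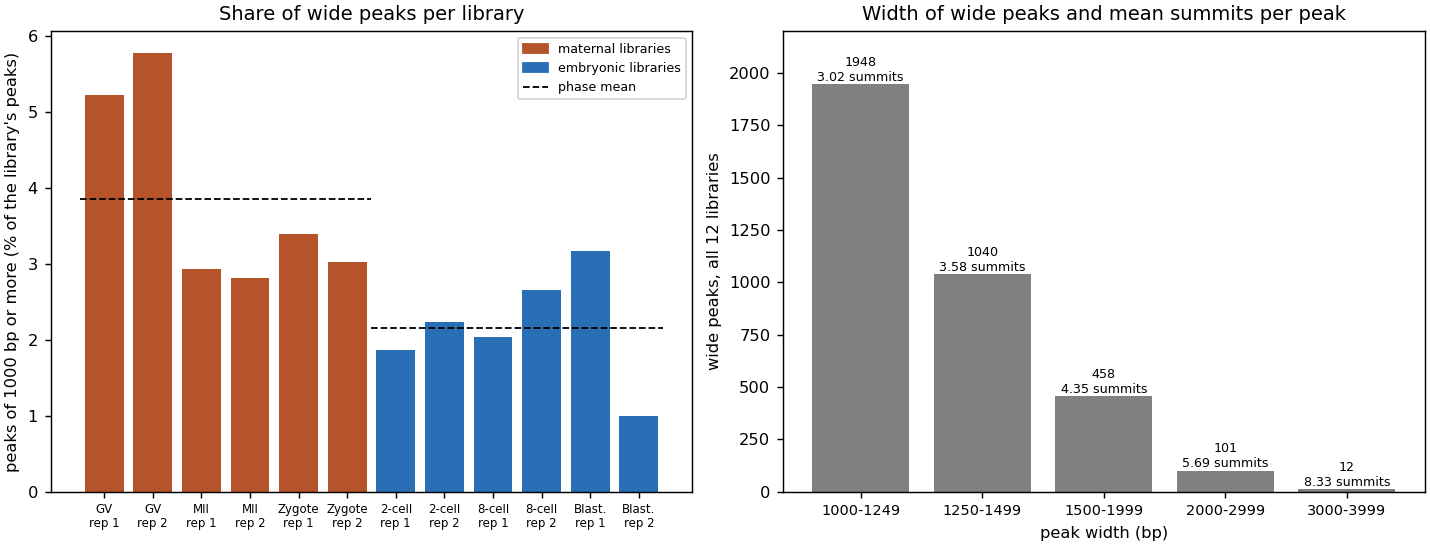
Left, peaks of at least 1000 bp as a percentage of all peaks in each of the 12 libraries (bars) with the mean of each phase (dashed lines). Right, number of wide peaks of all libraries by width in bp, with the mean number of summits per peak above each bar; the GV libraries stand highest on the left, at 5.23% and 5.78%.

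Most wide peaks were only a little wider than the limit. Their median width was 1226 bp; 571 reached 1500 bp, 113 reached 2000 bp and 12 reached 3000 bp. They carried several summits each: 3 summits in 42.6%, 4 in 32.3% and 2 in 13.5%, while 83.3% of the narrower peaks had 1. Only 20 wide peaks had a single summit. The number grew with width, from a mean of 3.02 summits at 1000 to 1249 bp to 5.69 at 2000 to 2999 bp and 8.33 above that, so that the density stayed between 2.47 and 2.70 summits per kb. Neighbouring summits of a wide peak lay a median of 318 to 350 bp apart, by library. The median fold enrichment of wide peaks, as the authors' files give it for the best summit, was 6.66 to 13.4 by library, against 4.48 to 6.78 for narrower peaks, and within a wide peak the weakest summit had a median of 0.369 to 0.469 of the enrichment of the best. At the limit itself, 84 peaks measured 1000 to 1009 bp, with a median fold of 6.30, and 98 measured 990 to 999 bp, with a median fold of 8.25. Just inside, a peak at chr5:15660670-15661669 outside genes was 1000 bp wide in 2-cell replicate 1, with 25.4-fold enrichment. Another at chr12:44222081-44223080, over Gm2027, was 1000 bp wide in 2-cell replicate 2. Just outside, peaks of 999 bp lay at chr15:56289387-56290385 outside genes in 2-cell replicate 1, with 47.1-fold enrichment, and at chr2:71855737-71856735 over Itga6 in blastocyst replicate 1, with 4.15-fold enrichment.

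The other replicate of the same stage, which the choice of a wide peak did not use, nearly always had a peak at the same place. Any peak was found there for 96.6% to 100% of wide peaks, by library, and for 52.5% to 88.9% of narrower peaks; a wider interval has more room to overlap, and the difference was not tested. A wide peak was found there less uniformly, for 81.2% and 67.1% of the wide peaks of the GV replicates, 58.0% and 73.0% in MII oocytes, 73.6% and 56.5% in zygotes, 55.0% and 44.4% in 2-cell embryos, 65.9% and 46.8% in 8-cell embryos, and 20.0% and 74.7% in blastocysts. The widest peak of blastocyst replicate 2 at the wide peaks of replicate 1 had a median of 574.5 bp, so most of these places held a narrower peak there.

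On average, the genes under wide peaks were more alike between replicates than between other libraries. The Jaccard index, shared genes over all genes of both sets, was 0.601 for the GV replicates, 0.466 for MII oocytes, 0.455 for zygotes, 0.330 for 2-cell embryos, 0.401 for 8-cell embryos and 0.201 for blastocysts. Of 10395 ways to pair the libraries, 2 gave a mean as large as the true one of 0.409 (exact one-sided permutation test, p = 0.000192). There were exceptions. Blastocyst replicate 1 shared more with 8-cell replicates 1 and 2 (0.296 and 0.358) than with its own replicate. Zygote replicate 2 shared more with MII replicates 1 and 2 (0.579 and 0.486) than with its own replicate. Both values were also above the index of the MII replicates. MII oocytes and zygotes shared wide peak genes at a mean index of 0.460, between the values of their own replicates. Libraries of different stages of the same phase had a mean index of 0.263, and libraries of different phases 0.103.

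By place, 70.3% of wide peaks had their midpoint in a protein-coding gene, 5.73% in other genes only and 24.0% in no gene of the RefSeq table. The share outside genes changed strongly with stage. It was 22.0% and 21.6% in GV oocytes, 34.7% and 36.9% in MII oocytes, 48.5% and 38.6% in zygotes, 42.7% and 25.2% in 2-cell embryos, 2.23% and 2.78% in 8-cell embryos and 1.03% and 3.80% in blastocysts. The 4 libraries of 8-cell embryos and blastocysts were thus far below the other 8. Narrower peaks were also rarer outside genes in those 4 libraries than in the other 8, but the stages before them did not keep the same order: the highest value, 31.2%, was that of 2-cell replicate 1, and the MII libraries were at the level of the GV libraries.

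Across the 12 libraries the share outside genes was 5.28 percentage points higher for wide than for narrower peaks, and higher in 7 of 12 (exact two-sided sign-flip permutation test, p = 0.0879, adjusted over 3 places 0.248). The share in protein-coding genes was 4.76 points lower (exact permutation p = 0.165, adjusted 0.248), and that in other genes only differed by -0.521 points (exact permutation p = 0.290). None of the 3 passed the test. Strong narrower peaks are those with a q-value at least as good as the median wide peak of their library. All wide peaks were compared with these, so the sets are not matched in q. The share outside genes was then 6.84 points higher for wide peaks (exact permutation, adjusted p = 0.0344). That in coding genes was 7.19 points lower (exact permutation, adjusted p = 0.0344).

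The difference between wide and narrower peaks itself varied with the phase, a comparison added after the library values had been seen. Wide minus narrower, the share outside genes was 11.6 ± 8.92 points in the maternal and -1.05 ± 6.45 points in the embryonic libraries (SD, n = 6 each; exact permutation p = 0.0173, adjusted over 7 measures 0.0404). Without either replicate of MII oocytes, zygotes, 8-cell embryos or blastocysts, or 2-cell replicate 2, the adjusted p rose to between 0.111 and 0.131, and with whole stages permuted to 0.467. The embryonic phase was not uniform, since 2-cell replicate 1 was 11.5 points above its narrower peaks and the 8-cell and blastocyst libraries were all below theirs. Nor was the maternal phase: the GV libraries were 0.284 and 0.947 points above their narrower peaks, and the MII and zygote libraries 14.9 to 22.2 points.

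The excess outside genes lay at particular widths. In the pooled maternal libraries 30.5% of peaks of 1000 to 1249 bp and 39.3% of those of 1250 to 1499 bp were outside genes, but only 8.42% of those of 1500 to 1999 bp. Zygotes had the highest value, 53.4% of 191 peaks of 1250 to 1499 bp, and 22% of 50 peaks of the next width. The 8-cell libraries had none of 108 at 1250 to 1499 bp. With the limit at 1500 bp the comparison of wide with narrower peaks therefore reversed: the share outside genes was 8.96 points lower (exact permutation, adjusted p = 0.00293) and that in coding genes 9.41 points higher (exact permutation, adjusted p = 0.00586).

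**Figure D2:**
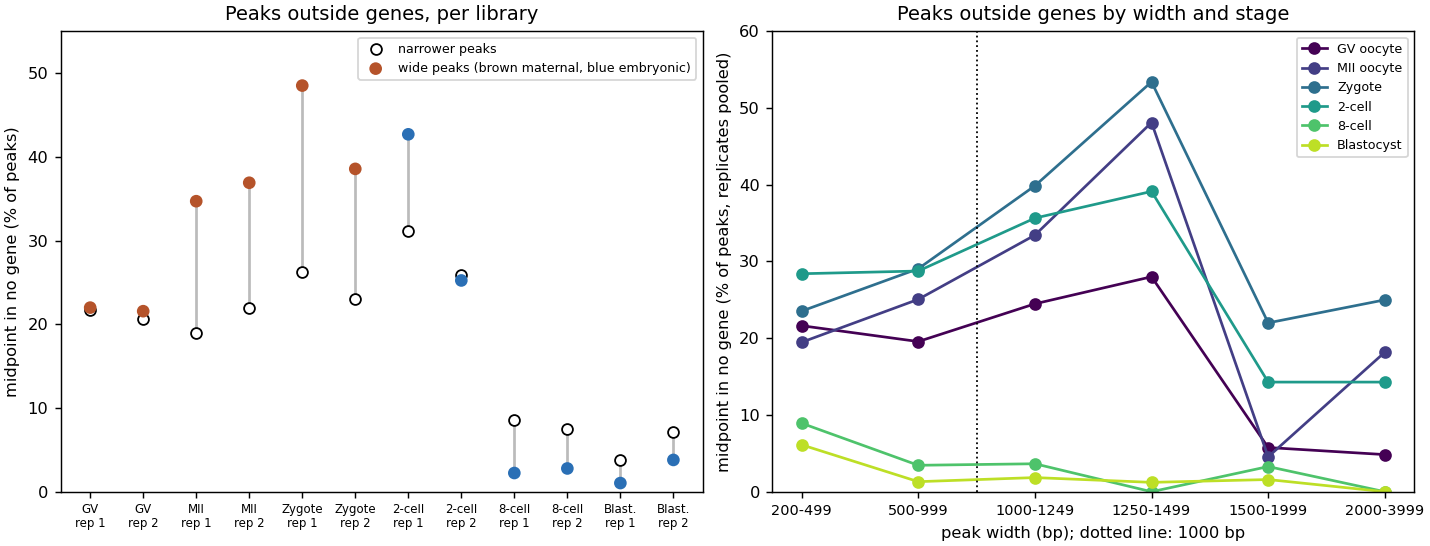
Left, percentage of peaks with the midpoint in no gene in each library, for wide (filled) and narrower (open) peaks. Right, the same percentage by peak width in bp for each stage with its replicates pooled; it reaches 53.4% in zygotes at 1250 to 1499 bp and drops for wider peaks, and it stays low in 8-cell embryos and blastocysts.

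Inside protein-coding genes of more than 10000 bp, wide peaks were rarer near the gene start. Their midpoint lay within 2000 bp of the start in 1.99% of cases, against 4.74% for narrower peaks, a difference of -2.75 points (exact two-sided sign-flip permutation test, p = 0.000488, the smallest 12 libraries allow; adjusted 0.00146), and the share was lower in 12 of 12 libraries. No wide peak of either zygote library lay there, against 6.09% and 7.24% of the narrower peaks. Wide minus narrower, the share was -4.23 ± 2.21 points in the maternal and -1.26 ± 0.721 points in the embryonic libraries (SD, n = 6 each; exact permutation p = 0.00216, adjusted 0.0152; a comparison added after the values were seen). Its adjusted p rose to between 0.106 and 0.111 without 2-cell replicate 2 or either 8-cell or blastocyst replicate, and to 0.467 with whole stages permuted. Against strong narrower peaks the difference was -0.923 points and did not pass the test (exact permutation, adjusted p = 0.0898).

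At the 3′ end the outcome rested on how distance was measured. The midpoint was within 2000 bp of the 3′ end for 18.5% of wide and 24.0% of narrower peaks, a difference of -5.52 points (exact permutation p = 0.00781). The midpoint of a peak of 1000 bp that lies inside a gene is at least 500 bp from the end, and with distance taken from the nearest edge of the peak the shares were 26.7% and 25.7% (exact permutation p = 0.512). The start kept its deficit by that measure, 1.99% against 4.99% (exact permutation, adjusted p = 0.00146). For either end together the shares were 18.8% and 28.3% by the midpoint (exact permutation, adjusted p = 0.00146) and 27.7% and 30.3% by the edge (exact permutation, adjusted p = 0.0879). Along the gene, from 0 at the start to 1 at the end, the median position of wide peaks was 0.781 to 0.884 by library. That of narrower peaks was 0.724 to 0.881, and the difference was not tested.

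**Figure D3:**
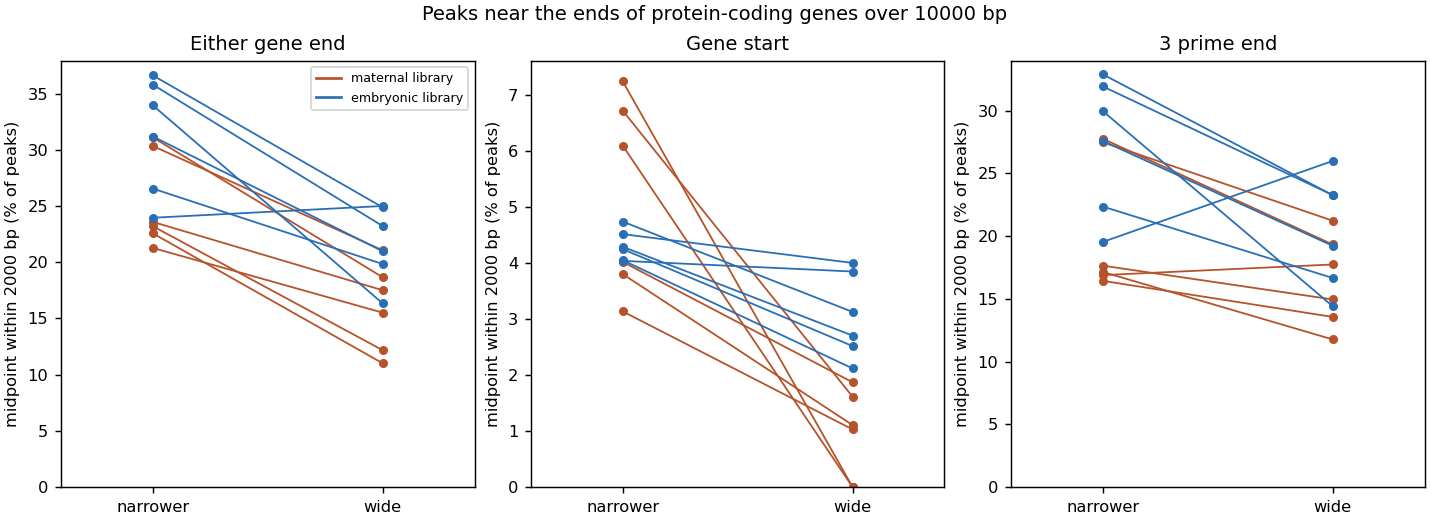
Percentage of peaks in protein-coding genes over 10000 bp whose midpoint lies within 2000 bp of either gene end, of the start and of the 3 prime end, for narrower and wide peaks; each line joins the values of 1 library. All 12 lines fall for the gene start.

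The genes under wide peaks were about as long as those under narrower ones. The median gene length averaged 41347 bp for wide and 40267 bp for narrower peaks over the libraries (exact sign-flip permutation p = 0.589), and the sign of the difference turned without zygote replicate 1 (-285 bp, exact permutation p = 0.854). Against strong narrower peaks, a set not matched in q, the genes under wide peaks were 5559 bp longer (exact permutation p = 0.00195). Exons were not annotated in the table used, so length here includes introns.

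Wide peaks lay over 892 of the 9903 protein-coding genes with a peak in any library, 9.01%. Of these 892, 307 had a wide peak in 1 library, 230 in 2 and 112 in 3. In 51 genes a single library held several wide peaks, most of all in Ahnak, a giant scaffold protein gene, with 4 in blastocyst replicate 1 and 3 in replicate 2. When a gene holds several peaks, its widest peak is the value used below, so 2 libraries may be compared at different places of a gene.

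A small set of genes was wide throughout development. Zfp951, a zinc finger gene, Arid1a, which encodes a subunit of the SWI/SNF chromatin remodeller, and Ppig, a nuclear cyclophilin gene, had a wide peak in all 12 libraries. Arid1a peaks measured 1888 and 1914 bp in GV oocytes, 1867 and 1641 bp in MII oocytes, 1865 and 1869 bp in zygotes, 1802 and 1669 bp in 2-cell embryos, 2070 and 1959 bp in 8-cell embryos, and 2026 and 1644 bp in blastocysts. Its phases overlapped fully, with means of 1841 ± 99.6 and 1862 ± 183 bp (SD, n = 6 each). The widest Arid1a peak, at chr4:133680098-133682167, had its midpoint 2125 bp from the 3′ end of the gene. Ppig was even more constant, between 1175 and 1518 bp, with a median of 1198.5 bp. Zfp951 ranged from 1015 bp in zygote replicate 1 to 2348 bp in MII replicate 1.

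The genes wide in 11 libraries were Rb1cc1 (an autophagy initiation factor), Phf3 (a PHD finger protein bound to RNA polymerase II), Kat6b (a histone acetyltransferase), Rest (a repressor of neuronal genes) and Ing1 (a reader of methylated histones). In each the remaining library had a narrower peak: 598 bp for Rb1cc1 in zygote replicate 1, 928 bp for Phf3 in 2-cell replicate 1, 718 bp for Rest in MII replicate 2, and 691 bp for Kat6b and 520 bp for Ing1 in blastocyst replicate 2. Zfp936, Mki67 (the proliferation marker Ki-67) and Lcor (a nuclear receptor corepressor) were wide in 10 libraries and Atrx, a chromatin remodeller gene, in 9.

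The widest peaks lay in GV oocytes. Zfp616 had the widest, 3754 bp in both GV replicates with 9 summits each, at chr11:74083100-74086853 in replicate 1, midpoint 2324 bp from the 3′ end. It measured 2433 and 3041 bp in MII oocytes and 1183 and 1116 bp in zygotes, then 450 and 354 bp in 2-cell embryos, and only 200 bp in 1 of the 4 later libraries, which otherwise had no peak. Its maternal values were all above its embryonic ones. Zfp518a reached 3492 bp in GV replicate 2 and 2583 bp in replicate 1, 379 to 958 bp in the 4 other maternal libraries, and 597 to 1633 bp in the embryonic ones. Pcdh9, a protocadherin gene of 879135 bp, held the peak with the most summits, 10 over 3385 bp in GV replicate 1, and it lay 5677 bp from the gene start; in replicate 2 it was 2027 bp. Gm38706 reached 3332 bp.

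Some of the widest peaks lay at later stages. Lcor was 3168 bp in 2-cell replicate 2 and 909 to 1608 bp in the 11 other libraries. Rif1, a gene for replication timing and repair, was 3050 bp in 8-cell replicate 1 and 1364 bp in its replicate. Atrx was 2902 and 2080 bp in 8-cell embryos, 874 and 2655 bp in 2-cell embryos, and 828 to 1653 bp in the maternal libraries, so its phases overlapped. Ice1, a gene for small nuclear RNA transcription, was 2941 bp in GV replicate 2 and 1672 bp in replicate 1.

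Of 135 protein-coding genes with a wide peak in 5 to 7 libraries, where a p of 0.05 is attainable, 59 (43.7%) were wide in more maternal libraries and 8 (5.93%) in more embryonic ones (Fisher's exact test per gene with Benjamini-Hochberg adjustment over the 135; adjusted p = 0.00913 for 6 against 0 libraries and 0.0305 for the others). Here and for the genes named below, the test counts both libraries of a stage separately, although they share that stage. Whole stages were not permuted for genes. As for the share of wide peaks, the smallest p that permuting whole stages allows is 0.1, so no gene could be called that way. The calls therefore hold for libraries and not for stages as the units. For any peak in place of a wide one, 28% of 2310 tested genes were called for the maternal and 21.6% for the embryonic phase. Of the 59 maternal genes 31 were wide in 6 maternal and no embryonic library, as against 1 of the 8 embryonic genes. The embryonic count rose to between 14 and 19 without 1 library: to 14 without GV replicate 1, 2-cell replicate 2 or 8-cell replicate 1, to 17 without GV replicate 2, to 18 without blastocyst replicate 2 and to 19 without 2-cell replicate 1. The maternal count was 59 to 83 without any 1 library, and comparing the 4 oocyte libraries with the 8 embryo libraries gave none in either direction (47 had an unadjusted p of at most 0.05).

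Maternal genes usually kept a peak in some embryonic libraries but not in all. At the place of the wide peak, embryonic libraries had a peak in 191 of 354 pairs of gene and library and none in the others. The median width of the peaks found there was 494 bp. Some of these peaks were still wide. Itpr2 measured 961 and 1359 bp in 2-cell embryos and had no peak there in 8-cell embryos or blastocysts. Other maternal genes, Bmp2k among them, also had a peak there in the 2-cell libraries and in no later one. For 3 of the 59 genes no embryonic library had a peak there, for 47 some did and for 9 all 6 did. By the test on any peak, 4 of the 59 were also called for the maternal phase. Embryonic genes had maternal peaks in 12 of 48 pairs, with a median of 298 bp, and 4 of the 8 were also called on any peak.

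Among maternal genes, the kinase gene Abl2 was 1437 and 1427 bp in GV oocytes, 1377 bp in both MII libraries and 1333 and 1363 bp in zygotes, and 288 to 899 bp with a median of 495 bp in the embryonic libraries. Its phases did not overlap, yet all 12 libraries had a peak there. Gapvd1, for an endocytic regulator, was 1161 to 1447 bp in the maternal libraries (6 against 0 wide, Fisher's exact test, adjusted p = 0.00913). In the embryonic libraries its widest peak anywhere in the gene was 539 to 863 bp. At the place of the wide peak only 3 embryonic libraries had a peak, of at most 539 bp. Fbxo46, for a ubiquitin ligase subunit, was 1433 to 1755 bp, median 1671.5 bp, against 200 to 611 bp, median 341 bp. Zfp955a was 1111 to 1817 bp against 200 to 710 bp. Bmp2k, a kinase gene whose wide peak is shared with its neighbour Paqr3, was 1186 to 2113 bp in the maternal libraries, 497 and 422 bp in 2-cell embryos, and without a peak in the 4 later libraries. Trim60 and Trim61, overlapping tripartite motif genes that share wide peaks, were 1448 to 2124 bp and 1363 to 1852 bp in the maternal libraries, and at most 610 bp after.

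Among embryonic genes, Purb, for a single-stranded nucleic acid binding protein, had no peak in any maternal library and 1356 and 1759 bp in 2-cell embryos, 1825 and 1343 bp in 8-cell embryos, and 1413 and 1352 bp in blastocysts (0 against 6 libraries; Fisher's exact test, adjusted p = 0.00913). Klhl11, a kelch family gene, was 1104 to 1875 bp in the embryonic libraries and already 1072 bp in GV replicate 1. Gm13102, Plekhf2 (an endosome protein gene) and Eif1a (a translation start site selection factor) were wide in 5 embryonic libraries and had a maternal peak in none, none and 1 library (209 bp). Rrs1, for a ribosome assembly factor, was 868 to 1357 bp against 411 bp at most, and Ccpg1, an autophagy receptor gene of the endoplasmic reticulum, 552 to 1161 bp against 600 bp at most. Zfp993 shares its wide peaks with Zfp981, and reads of such near copies may be assigned to either.

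**Figure D4:**
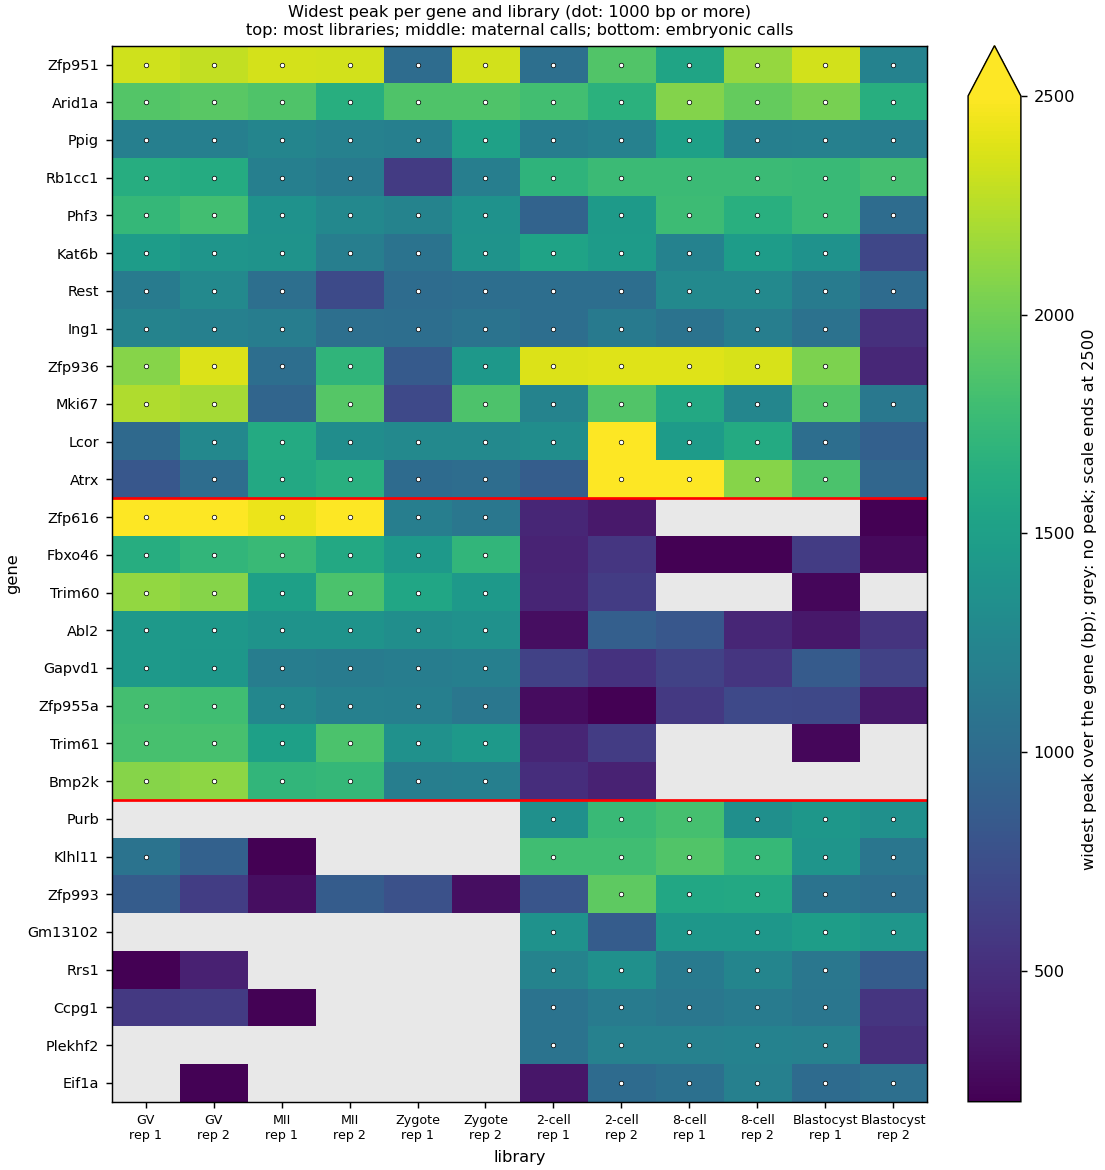
Width in bp of the widest peak over each gene (rows) in each of the 12 libraries (columns), with a dot where it is 1000 bp or more and grey where there is no peak. The genes wide in most libraries stand on top, then 8 genes wide in more maternal and 8 wide in more embryonic libraries; the maternal genes keep narrower peaks in 2-cell embryos.

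Loci, formed by merging overlapping wide peaks of all libraries, numbered 1312. Of these, 485 were wide in 1 library, 3 in all 12, and 260 (19.8%) in both phases; 102 were wide in all 6 maternal libraries, 53 of them in no embryonic one, and 10 in all 6 embryonic libraries. The GV stage had 463 loci wide in both replicates. Of these 51.8% were still wide in at least 1 MII library and 47.7% had a narrower peak only, and 0.432% had none. By the 2-cell stage 62.6% had narrower peaks only and 17.5% none, and by the 8-cell stage 53.6% had none. Among 9407 loci with a peak of any width in both GV libraries, 26.6% had no MII peak, 53.3% no 2-cell peak and 62.6% no 8-cell peak. These loci were merged from the GV libraries alone, whereas the wide loci were merged from all libraries. A wider interval also has more room to overlap a peak, and the difference was not tested. By gene, 35.1% of the 345 genes wide in both GV libraries had no 8-cell peak, against 38.3% of the 4550 genes with any peak in both, so the loss by then was near that of all genes with a peak. Loci wide in both MII libraries were wide in 91.8% of cases in GV oocytes and 87.0% in zygotes. Loci wide in both 8-cell libraries were wide in 67.5% of cases in blastocysts and in 49.6% in 2-cell embryos. The share was 50.4% in GV oocytes, 21.4% in MII oocytes and 20.5% in zygotes. These shares were not adjusted for the number of wide peaks. Its mean per library was 632 in GV oocytes, 284.5 in MII oocytes and 270.5 in zygotes.

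**Figure D5:**
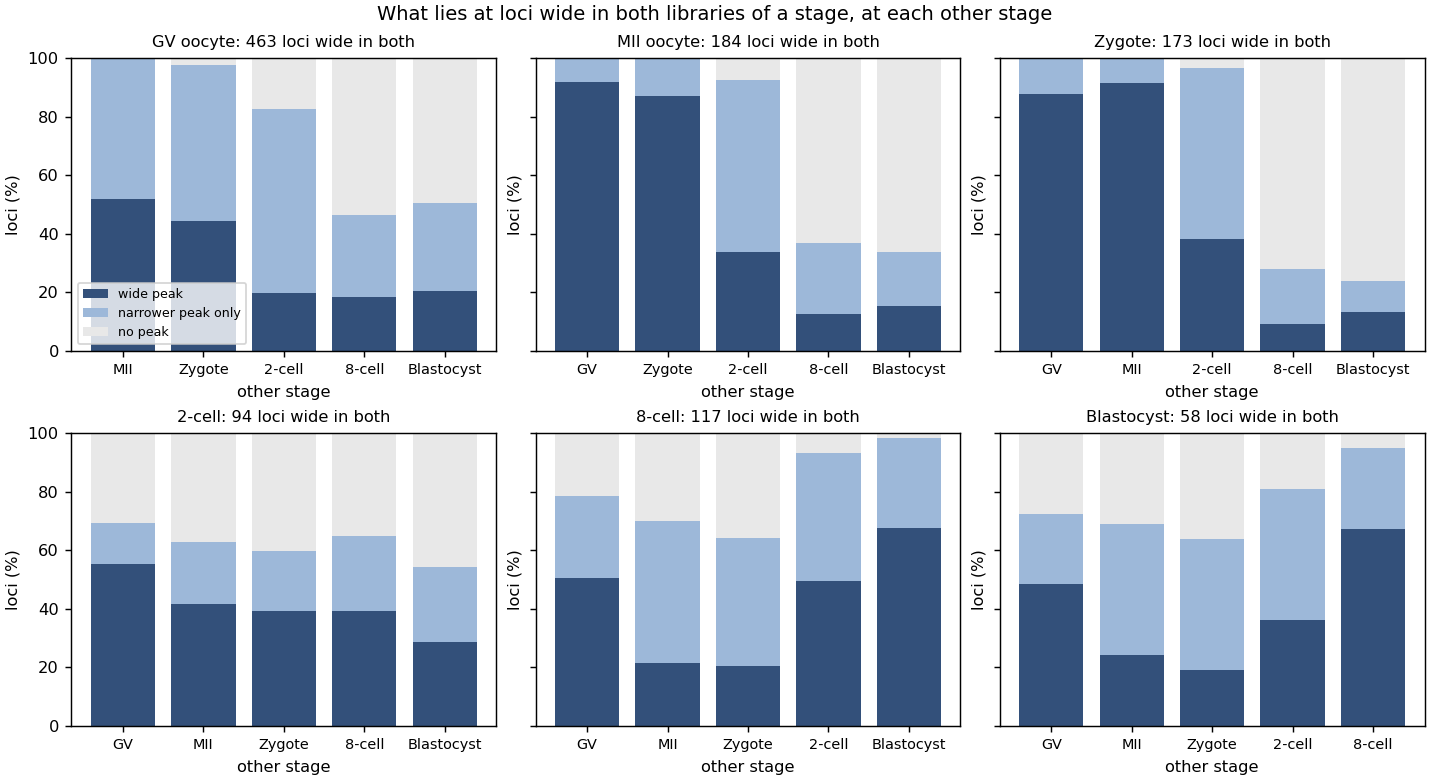
For loci wide in both libraries of a stage (panels), the percentage with a wide peak, a narrower peak only or no peak in either library of each other stage (bars). GV loci show few losses up to the zygote and 53.6% without a peak in 8-cell embryos.

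Genes wide in both libraries of 1 stage and in no other library were counted next. There were 105 of the 345 genes wide in both GV libraries, 0 of 104 for MII oocytes, 1 of 85 for zygotes, 7 of 58 for 2-cell embryos, 14 of 118 for 8-cell embryos and 11 of 58 for blastocysts. Nearly all of them had a narrower peak at another stage, and only 1, a blastocyst gene, had none. The counts were not adjusted for the number of wide peaks. Its mean per library was 632 in GV oocytes, 284.5 in MII oocytes and 270.5 in zygotes. It was 192.5 in 2-cell embryos, 215.5 in 8-cell embryos and 184.5 in blastocysts. The same count for peaks of any width was not made, and the difference between stages was not tested. The GV genes included Crybg3 (1687 and 2588 bp, elsewhere at most 672 bp), Gcnt4, for an enzyme that branches O-glycans (2133 and 2125 bp, elsewhere at most 942 bp), and Tnrc6c, for a partner of Argonaute (1908 and 1953 bp, elsewhere at most 868 bp). The zygote gene was Gulp1, an engulfment adaptor gene, with 1321 and 1091 bp. At the 2-cell stage Kmt5b, for a histone H4 methyltransferase, was 1434 and 1532 bp with no maternal peak, and Ppp1r15a, for a phosphatase subunit of the stress response, 1352 and 1477 bp with at most 555 bp elsewhere. At the 8-cell stage Spen, which encodes a repressor acting with Xist, was 1778 and 1531 bp and 343 to 938 bp elsewhere. In blastocysts B3gnt5, for a glycolipid enzyme, was 1802 and 1466 bp and had no peak in any other library; Ahnak was 1534 and 1383 bp, with 335 bp in 8-cell replicate 2 alone besides.

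The lists below were chosen with earlier results of these data known. Their shares stand beside 9.01% of all protein-coding genes with a peak in any library. That share is not matched for the number of libraries with a peak. Genes with a peak in more libraries have more chances of a wide one, and no enrichment was tested. Of the m6A writers, readers and erasers, 9 of the 20 with a peak (45%) had a wide one, in 5 cases in a maternal and in 7 in an embryonic library. The readers Ythdf2 and Ythdf3 were wide in 7 libraries each. Ythdf2 was 1321 and 1322 bp in GV oocytes, 765 and 933 bp in MII oocytes, 570 and 988 bp in zygotes, 1010 and 1332 bp in 2-cell embryos, 1644 and 1624 bp in 8-cell embryos, and 1640 and 599 bp in blastocysts. It was thus wide on both sides of MII oocytes and zygotes and not in them. Ythdf3 was 1499 and 1501 bp in GV oocytes, 524 and 578 bp in zygotes, and 1336 to 1608 bp in the 8-cell and blastocyst libraries. The writer adaptor Rbm15 was wide in 4 libraries, up to 1560 bp, and Virma in 3 embryonic libraries, up to 1097 bp. Neither phase was called for Ythdf2 (2 maternal and 5 embryonic libraries; Fisher's exact test, adjusted p = 0.331) or Ythdf3 (3 and 4; Fisher's exact test, adjusted p = 1).

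Of 21 oocyte-specific genes with a peak 4 were wide, each in no embryonic library; of all 892 wide genes, 401 (45.0%) were wide in maternal libraries only and 273 (30.6%) in embryonic only, and the difference was not tested. Bmp15, an oocyte growth factor gene, was wide in all 6 maternal libraries, 1038 to 1441 bp, and had 230 bp in blastocyst replicate 1 alone later (Fisher's exact test, adjusted p = 0.00913). Its partner Gdf9 was 1244 and 1238 bp in GV oocytes and 236 to 594 bp in the other maternal libraries. Nlrp4b and Nlrp14 followed the same order, with 1535 and 1547 bp and with 1487 and 1116 bp in GV oocytes. Of 21 maternal-effect genes 5 were wide, among them Bnc1, for a zinc finger protein of germ cells, in 4 libraries (up to 1197 bp), and 2 were wide in an embryonic library only, Ago2 and Zfp57; Tet3, for the 5-methylcytosine dioxygenase of the oocyte, was wide in GV oocytes (1402 and 1413 bp in GV oocytes, 740 to 817 bp in the other maternal libraries). Mos, the kinase gene of metaphase II arrest, reached 1074 bp in GV replicate 1.

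Genes for storage and decay of maternal RNA gave 6 wide of 32 (18.8%). Ddx6, a helicase gene of RNA storage granules, was wide in 2 maternal and 3 embryonic libraries. Tnrc6b was wide in 4 maternal libraries and 1 embryonic one, and the decapping enzyme gene Dcp2 in the GV libraries, with 1522 and 1363 bp.

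Chromatin genes were wide in both phases. Histone lysine methyltransferase and demethylase genes gave 6 of 41 (14.6%). Nsd1, for an H3 lysine methyltransferase, was 797 to 2187 bp with a median of 1613.5 bp in the maternal and 388 to 1586 bp with a median of 777 bp in the embryonic libraries. Setd2, also for an H3 lysine methyltransferase, was 467 to 1215 bp in the maternal and 880 to 1799 bp in the embryonic libraries. DNA methylation and Polycomb genes gave 6 of 29 (20.7%), among them the 3 genes for TET dioxygenases, set side by side here after their values were seen. Tet3 was wide in GV oocytes only, whereas Tet2 was 1252 and 1621 bp in 8-cell embryos and 1722 and 1777 bp in blastocysts, 328 and 334 bp in GV oocytes, and without a peak between. Tet1 was wide in 3 embryonic libraries. Asxl1, a Polycomb partner gene, reached 2548 bp in GV replicate 1.

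Centrosome, spindle and genome stability genes gave 10 of 34 (29.4%). Mki67 was 2222 and 2193 bp in GV oocytes and 1123 to 1874 bp in the embryonic libraries, with its lowest value, 710 bp, in zygote replicate 1. Cenpf, a kinetochore gene, was 2775 bp in GV replicate 2, 1275 bp in replicate 1 and 573 to 2190 bp in the other libraries. Of the meiosis regulators 2 of 20 were wide (10%): Sgo2a, a cohesin protector gene, was 1953 and 2277 bp in GV oocytes, 403 to 507 bp in MII oocytes and zygotes, and 852 to 2344 bp in the embryonic libraries, so the 4 libraries between were below all others.

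Small RNA and retrotransposon silencing genes gave 6 of 24 (25%). Mov10, a helicase gene of retrotransposon restriction, was 1137 to 1591 bp in the maternal and at most 813 bp in the embryonic libraries (6 against 0 wide; Fisher's exact test, adjusted p = 0.00913). Zfp809, for a repressor of retroviral primer binding sites, was 1358 to 2417 bp in 8-cell embryos and blastocysts and at most 646 bp in the maternal libraries; its wide peak overlaps Zfp599. Drosha, the microRNA processing nuclease gene, was 1059 bp in 2-cell replicate 2 and 1242 bp in 8-cell replicate 1.

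Among 4 lists of embryonic genes, 11 of the 13 wide genes were wide in embryonic libraries only, which held for 30.6% of all wide genes; no test was made. Of 29 genes of the 2-cell stage and genome activation 5 were wide (17.2%). Ubtfl1, an embryonic gene of the UBTF family, was 1238 to 1393 bp in 2-cell and 8-cell embryos and had no maternal peak, and Pramel5 was wide in 3 embryonic libraries. Klf17 was the exception, 1142 bp in GV replicate 2. Pluripotency genes gave 5 of 25 (20%), each in 1 library, which was an embryonic one for 4 of them and a maternal one for Il6st, a cytokine receptor gene. Klf4 measured 665 to 687 bp in the 6 maternal libraries, and 1312 bp in blastocyst replicate 1 against 673 bp in replicate 2. Sox2 reached 1187 bp in blastocyst replicate 1. Of the trophectoderm genes 2 of 22 (9.09%) were wide: Eomes, a transcription factor gene of that lineage, was 708 and 793 bp in 8-cell embryos and 1318 and 1137 bp in blastocysts and had no peak before, and Cldn4, a tight junction gene, reached 1709 bp in 8-cell replicate 2. Gata6, of the primitive endoderm list (1 of 10), was 1129 and 1141 bp in 8-cell embryos and 942 and 625 bp in blastocysts.

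Among immediate early, stress and feedback genes 5 of 26 were wide (19.2%). Ppp1r15b was wide in 8 libraries, 809 to 1732 bp in the embryonic and 200 to 1248 bp in the maternal ones. Spry1, a feedback inhibitor gene of receptor kinases, was 1452 and 1460 bp in GV oocytes, and Spry2 1038 bp in 2-cell replicate 1. Imprinted genes gave 2 of 16 (12.5%), Usp29 (1254 and 1504 bp in 2-cell embryos) and Jade1. Of 20 cumulus and granulosa cell markers, 6 had a peak in any library and 0 had a wide one.

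Zinc finger genes named Zfp, a list chosen after the values were seen, gave 93 of the 312 with a peak (29.8%): 40 were wide in maternal libraries only, 26 in embryonic only, and 7 of the 59 maternal and 1 of the 8 embryonic calls were among them. Their shares by phase were close to those of all 892 wide genes, of which 45.0% were wide in maternal libraries only and 30.6% in embryonic only, against 43.0% and 28.0% of the Zfp genes, and of which 6.61% were called for the maternal phase, against 7.53%. Some of the densest groups of wide loci lay over Zfp genes. Of 929 windows of 1 Mb with a wide locus 662 held 1 and 12 held 5 or more. The highest count, 11 loci, lay at 147 to 148 Mb of chromosome 4, over 8 genes that are all named Zfp. The next had 8 loci each: at 62 to 63 Mb of chromosome 13, 1 of the 7 genes is named Zfp, and at 130 to 131 Mb of chromosome 6, 0 of 3. The 7 loci at 146 to 147 Mb of chromosome 4 were all wide in embryonic libraries only, over Zfp600, Zfp981, Zfp987, Zfp992, Zfp993 and others. Of all 1312 loci, 384 were wide in embryonic libraries only. At 33 to 34 Mb of chromosome 17 the 5 loci lay over Zfp563, Zfp763, Zfp81, Zfp952 and Zfp955a. Genes of such clusters are near copies, and how reads were shared among them is not given in the sources used here.

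Of the 1312 loci 303 lay outside genes, 202 of them wide in maternal libraries only and 59 in embryonic only. Among all 1312 loci the counts were 668 and 384, and the difference was not tested. The loci outside genes were a median of 48651 bp from the nearest protein-coding gene. Of these 149 were more than 50000 bp away and 42 less than 5000 bp. The widest, at chr1:118198659-118202112, was 3154 and 3453 bp in GV oocytes, 2552 and 2549 bp in MII oocytes, 1414 and 2469 bp in zygotes, 200 and 268 bp in 2-cell embryos, and absent later; the nearest coding gene was Tsn, 96402 bp away. Another kind stayed wide up to the 2-cell stage: 13 loci outside genes were wide in exactly the 6 maternal and both 2-cell libraries, among 20 such loci in all. One, chosen after its values were seen, at chr1:134256932-134258454, was 1382 to 1508 bp in the maternal and 1510 and 1522 bp in the 2-cell libraries, and had no peak after that. A further kind was wide at the 2-cell stage alone, as at chr7:103262726-103264787, with 2061 and 1496 bp, 24.6-fold enrichment at its best summit and no peak in the 10 other libraries. The 5 loci at 15 to 16 Mb of chromosome 5 were wide in embryonic libraries only and lay outside protein-coding genes. At 130 to 131 Mb of chromosome 6, 7 of 8 loci were wide in maternal libraries only, and 6 of the 8 were outside protein-coding genes.

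Of the 204 wide peaks in other genes only, 99 lay over long non-coding RNA genes, 67 over pseudogenes and 26 over transcribed pseudogenes. Of these, 3 genes chosen after their values were seen are given. Tug1, a long non-coding RNA gene, was wide in 8-cell replicate 2 (1934 bp) and blastocyst replicate 1 (1216 bp) and had peaks of 200 to 912 bp in 8 of the other libraries. Zfp813-ps, a pseudogene, was wide in all 6 maternal libraries, 1376 to 1967 bp, and had no embryonic peak. Gm7240 was 1774 and 1573 bp in blastocysts 750 and 696 bp in 8-cell embryos, 240 to 491 bp in the maternal libraries, and without a peak in 2-cell embryos.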

How the data were processed

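picoMeRIP-seq was run on 24 samples, 12 pull-downs and 12 inputs; peak lists of the 12 pull-downs were used. The submitters' processing notes name build mm10 and MACS2 2.1.2, and also HISAT2 2.1.0, bedtools 2.28.0, SAMtools 1.9, FastQC 0.11.8, deepTools 3.2.0 and cutadapt 1.8.1. Each line of the deposited lists gives a summit with its interval, a score, a fold enrichment (a ratio to background), and −log10 p and −log10 q values. The deposited score was the floor of 10 times −log10 q in 99.9993% of lines, and the lowest −log10 q was 1.30. Peaks were deposited per library. Read depth is unknown and the role of the inputs in calling is not stated, so the effect of either on the peaks could not be assessed. The precision stated reflects only the number of libraries and the spread between them.

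Lines with one interval were collapsed, and the best summit gave a peak its fold and q. Peaks were placed by midpoint against the RefSeq gene table of GRCm38.p6 (49943 genes, 21887 protein-coding), which holds no exons; strand was available for 79.9% of protein-coding genes through the RefSeq promoter table, and gene-end tests used those. Wide and narrower peaks were compared within libraries by exact sign-flip permutation tests, phases by exact permutation tests over libraries, and genes by Fisher's exact test, all two-sided, with Benjamini-Hochberg adjustment and a threshold of 0.05; replicate likeness was one-sided. GV, MII and zygote libraries formed the maternal phase. Python 3.11.15, numpy 2.4.6, pandas 2.3.3, scipy 1.17.1 and matplotlib 3.10.9 were used, and the tests were tested on simulated data.

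Named were the 8 genes with the widest peaks, the 12 genes wide in most libraries, up to 4 per stage wide in both its libraries only, up to 8 per phase with the largest difference in libraries, up to 4 per list by libraries, the peaks with most summits, the widest loci outside protein-coding genes and the peaks on either side of the limit; other names are said to be chosen after their values were seen. The members, lists and rules were chosen with earlier results of these data known. Alternatives were limits of 800 and 1500 bp, a −log10 q of at least 5, strong narrower peaks, 5000 bp from gene ends, leaving out each library, and other groupings. Strong narrower peaks had a q-value at least as good as the library's median wide peak, and all wide peaks were kept. Alternatives added after seeing the data are named so.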

Additional observations from a re-analysis of the deposited data

Results flagged for a closer look

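Of 28 groups of library values checked for a library far from the rest, 4 had one; chance gives about 1 in 20 groups. Among the maternal libraries, zygote replicate 1 had the highest median fold enrichment of wide peaks, 13.4. Among the embryonic libraries, 2-cell replicate 1 stood apart in 3 measures: its best summit lay nearer the 3′ than the 5′ edge in 64.6% of wide peaks, the highest value, its share of wide peaks in protein-coding genes was -12.5 points relative to its narrower peaks, the lowest, and its share outside genes was 11.5 points higher, the highest.

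The difference between wide and narrower peaks differed between the phases in 3 measures, by exact permutation tests added after the values had been seen. Maternal minus embryonic, it was -13.5 points for protein-coding genes and 12.7 points for places outside genes (exact permutation, adjusted p = 0.0404 for both), and -2.97 points for the gene start (exact permutation, adjusted p = 0.0152).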

How the results depend on the processing

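Replicates are 2 per stage, stages are not replicates of a phase, and depth is unknown. The share of wide peaks by phase was 1.32 to 1.91 points higher in the maternal libraries without any 1 library, 0.185 with a limit of 1500 bp and 0.880 without both GV libraries (added after seeing the data), the latter pair not passing the test; with whole stages permuted the 1.70 points could not pass. The replicate numbers do not pair the libraries: over 15 pairs of stages the correlation of deviations was -0.186 to 0.0833 and 0 were over 0.1. With the replicate block the share differed by 1.70 points (exact permutation p = 0.015). With a limit of 1500 bp, coding genes turned to 9.41 points and places outside genes to -8.96. Against strong narrower peaks these were -7.19 and 6.84 and passed the test. Other genes only turned to 0.118 points at 800 bp and 0.353 against strong narrower peaks. Without any 1 library the 3 places ranged from -6.02 to -3.21, 3.74 to 6.34 and -0.850 to -0.319 points. Near gene ends the ranges were -10.5 to -8.76 for either end, -2.98 to -2.34 for the start and -6.61 to -4.61 for the 3′ end. Calls were lost for either end at 1500 bp (-6.98), within 5000 bp (-0.448) and by edge distance (-2.64). They were also lost for the start against strong narrower peaks (-0.923), and for the 3′ end at 1500 bp (-1.13) and over 6 stage means (-5.52). The 3′ end turned to 4.57 within 5000 bp and 1.06 by edge distance. Gene length ranged from -285 bp, without zygote replicate 1, to 1836 bp, and was 5559 bp against strong narrower peaks. The added differences between phases ranged from -16.4 to -11.5 for coding genes, 10.5 to 15.2 outside genes and -3.40 to -2.37 for the start; at 800 bp the first pair were -12.8 and 11.8 and lost the call, at 1500 bp they turned to 5.10 and -4.18 and the start was -1.52, with the replicate block -13.5 and 12.7 lost the call (exact permutation, adjusted p = 0.0583), and with whole stages permuted so did -2.97. Maternal and embryonic genes numbered 89 and 25 at 800 bp, 7 and 0 at 1500 bp, 0 and 0 for oocytes against embryos by Fisher's exact test (47 with an unadjusted p of at most 0.05), and 59 to 83 and 8 to 19 without any 1 library. Loci numbered 2367 at 800 bp and 276 at 1500 bp, of which 1520 and 143 were in more than 1 library. Of 304 values for 16 single genes, 33 lost the call and 0 reversed. Whole stages were not permuted for the calls of genes. Except where the alternative has fewer peaks or libraries, the cause was not tested.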
